A study of Mus musculus with 21 samples.

Results

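The keratins of simple epithelium, Krt7, Krt8, Krt18, Krt19 and Krt23, were followed in mouse kidney RNA as 5 of the 21657 gene identifiers in the count tables. They were found by gene symbol and linked to the counts by Ensembl identifier. All 5 passed the filter on low counts in each of the 3 comparisons described here. The mice were female apoE knockouts on the C57BL/6J background, fed from 4 weeks of age for 14 weeks and 18 weeks old at collection. The Con group (5 mice) received chow, the Ade group (6 mice) chow with adenine, which injures the kidney tubules, and the Ade + IMC group (6 mice) chow with adenine and iodomethylcholine. Iodomethylcholine (IMC) inhibits the bacterial enzyme that makes trimethylamine from choline. The apoE deletion was shared by every group, so no mouse here was wild type, and the 4 Con + IMC mice were not analysed here, so IMC without adenine was not measured. Each value is kidney RNA of one mouse, in which fewer cells of a type and less RNA per cell cannot be told apart. The labels do not say which piece of the organ was used. Nothing in the labels names cages or litters, so the p-values measure the spread between these mice.

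Keratins build the intermediate filaments of epithelial cells, and each filament is assembled from pairs of a type I and a type II chain. Krt8 (type II) and Krt18 (type I) are the basic pair of simple, single-layered epithelium, including kidney tubules. Krt7 (type II) and Krt19 (type I) are best known from ducts, the collecting system and the urothelium that lines the renal pelvis, and Krt23 is a less studied type I keratin of epithelial cells.

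The genes lie in 2 clusters. In GRCm38, Krt7 (ENSMUSG00000023039) spans chr15:101411043-101430313 on the plus strand. Krt8 (ENSMUSG00000049382) spans chr15:101996698-102004482 on the minus strand and Krt18 (ENSMUSG00000023043) chr15:102028180-102032027 on the plus strand. Krt8 and Krt18 are thus divergently transcribed partners with 23697 bases between their starts. Krt19 (ENSMUSG00000020911, chr11:100140810-100148665) and Krt23 (ENSMUSG00000006777, chr11:99477974-99493137) are both on the minus strand of the type I cluster.

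Promoter windows of the 3 neighbours on chromosome 15 are shown because all 3 genes rose with adenine and because the Krt8 and Krt18 starts face away from each other. Each runs from 250 bases before to 50 after the RefSeq start, 5′ to 3′ on the gene's strand, from RefSeq on GRCm38.p6. These RefSeq starts differ from the gene starts given above. The whole Krt7 window lies downstream of the Krt7 start at 101411043. Capitals mark letters that match a searched motif on either strand. The Krt7 window is chr15:101412153-101412452 (plus strand), the Krt8 window chr15:102004293-102004592 (minus strand) and the Krt18 window chr15:102027966-102028265 (plus strand).
Krt7: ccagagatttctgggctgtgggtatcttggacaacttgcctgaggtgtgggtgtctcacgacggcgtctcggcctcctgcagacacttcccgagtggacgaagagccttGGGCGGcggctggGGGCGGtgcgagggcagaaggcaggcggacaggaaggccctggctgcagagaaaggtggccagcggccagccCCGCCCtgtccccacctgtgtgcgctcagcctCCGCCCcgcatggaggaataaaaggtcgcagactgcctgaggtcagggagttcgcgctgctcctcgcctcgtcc
Krt8: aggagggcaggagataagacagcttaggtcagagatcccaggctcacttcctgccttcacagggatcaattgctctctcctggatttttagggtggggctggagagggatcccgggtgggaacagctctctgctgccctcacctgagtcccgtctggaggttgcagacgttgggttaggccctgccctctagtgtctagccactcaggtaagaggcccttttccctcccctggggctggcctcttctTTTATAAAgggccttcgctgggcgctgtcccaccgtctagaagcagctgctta
Krt18: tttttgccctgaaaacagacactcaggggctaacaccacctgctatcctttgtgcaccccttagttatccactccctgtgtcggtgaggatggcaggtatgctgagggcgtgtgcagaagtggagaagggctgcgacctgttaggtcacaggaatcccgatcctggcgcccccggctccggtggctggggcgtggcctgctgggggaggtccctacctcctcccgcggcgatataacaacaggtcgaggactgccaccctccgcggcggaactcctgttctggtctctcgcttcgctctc

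Windows were searched for the TATA box TATAAA, for the GC box read by Sp1-type factors, GGGCGG, for the site of AP-1 factors, which is TGANTCA, and for that of ETS factors with the letters CCGGAA. The Krt7 window held 4 GC boxes, a motif found in 35.7% of all 32851 promoter windows. The Krt8 window held TATAAA on both strands, overlapping at the RefSeq start, a motif found in 13.6% of windows. The Krt18 and Krt23 windows held none of the 4 motifs, and no member window held the AP-1 site (7.81% of windows) or the ETS site (14.9%). Krt19 has no entry in the promoter table. The 3 genes printed therefore share none of the 4 motifs in these windows, which says nothing of the factors that bind there.

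Read counts were compared between mice as scaled counts, meaning the count divided by one size factor for each mouse over all 17 mice (median of ratios). Total counts were 7716126 to 11680809 in Con, 5444833 to 7673215 in Ade and 5728589 to 8305968 in Ade + IMC mice. Krt7 was read 860 to 1336 times in Con mice and Krt19 only 7 to 67 times, so low Krt19 and Krt23 values carry more counting error. Of the exonic windows of 50 bases, the read length, 29.7% of those of Krt8 also occur in another gene, nearly all in the processed pseudogene Krt8-ps, and such reads can be split between the copies or dropped. That share was under 1% for Krt7 (0.916%) and Krt18 (0.72%) and 0 for Krt19 and Krt23. Krt7 shares 77 exonic bases with the antisense gene Gm671 and Krt8 shares 101 with Gm36026 on the other strand, and whether strand was used in counting is not given in the sources used here.

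Of the 5 keratins, 4 rose with adenine feeding, and Krt23 was not called. Krt19 was 10.6-fold higher in Ade than in Con mice, Krt18 was 4.01-fold, Krt8 1.99-fold and Krt7 1.53-fold higher. Genes were called at an adjusted p below 0.1 in edgeR's quasi-likelihood test. Of all 14612 genes tested, 35.1% were called higher, 32.2% lower and 67.3% in either direction, so 4 of 5 called higher has to be read against a background in which most genes were called. Krt19, 1 of these 4, passed the filter on low counts only through the Ade mice.

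Krt7, the type II keratin of ducts and urothelium, had scaled counts of 1013, 1122, 1086, 848 and 1122 in Con mice 201, 202, 301, 302 and 403. In the 6 Ade mice the lowest was 1185, the median 1380 and the highest 2236. Every Ade mouse lay above every Con mouse, with mouse 207 highest and mouse 407 lowest of the Ade group. The log2 fold change was 0.62 ± 0.17 (SE) with an adjusted p of 0.00542 (edgeR).

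Krt8, the basic type II chain, had 350, 395, 358, 317 and 403 in the same Con mice and 497 (lowest), 624 (median) and 1053 (highest) in Ade mice. The groups did not overlap, and Ade mice 207 and 208 stood at 1053 and 953 against at most 647 in the rest of the group. The log2 fold change was 0.99 ± 0.20 (SE, edgeR adjusted p = 0.000632).

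Krt18, the type I partner of Krt8, had 149, 260, 258, 111 and 141 in Con mice. In Ade mice the lowest value was 281, the median 611 and the highest 1216. The groups did not overlap, but mouse 407, at 281, was only just above Con mouse 202. The log2 fold change was 2.0 ± 0.36 (SE, edgeR adjusted p = 0.000289).

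Krt19, a type I keratin that pairs with Krt7 or Krt8, had 50.8, 53.7, 40.9, 6.90 and 14.9 in Con mice. In Ade mice the lowest value was 152, the median 273 and the highest 702. Con mice 302 and 403 were far below the other 3 Con mice, and all 6 Ade mice lay well above them all. The log2 fold change was 3.41 ± 0.48 (SE, edgeR adjusted p = 4.1e-05). Krt19 reached the minimum of the filter on low counts in 4 of the 5 Con mice and in all 6 Ade mice. The filter asks for at least 5 mice, so Krt19 passed only through the Ade mice.

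Krt23, the remaining type I keratin, was the least abundant, at 20.5, 37.2, 37.9, 14.8 and 16.8 in Con mice. In Ade mice it was 12.8 at the lowest, 20.9 at the median and 36.0 at the highest. The groups overlapped over nearly their whole range, and the log2 fold change of -0.17 ± 0.31 (SE) was not called (edgeR adjusted p = 0.661). These counts came from 13 to 38 reads in each of the 11 mice.

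For the 4 called members, every Ade mouse lay above every Con mouse. Among all genes tested, 22% had such a separation upward, so the lack of overlap is common in this comparison. Mice with the same first digit of their mouse number (2, 3 or 4, a grouping whose meaning the labels do not give) were also compared. For Krt7, Krt8, Krt18 and Krt19 the lack of overlap puts the Ade mean above the Con mean within all 3 digits in advance, so this adds no support. For Krt23 the Ade mean of log2 scaled counts was above the Con mean within 1 of 3 digits. Digit 3 held 1 Ade mouse and digit 4 held 1 Con mouse. The plot of counts by mouse shows these values.

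**Figure D1:**
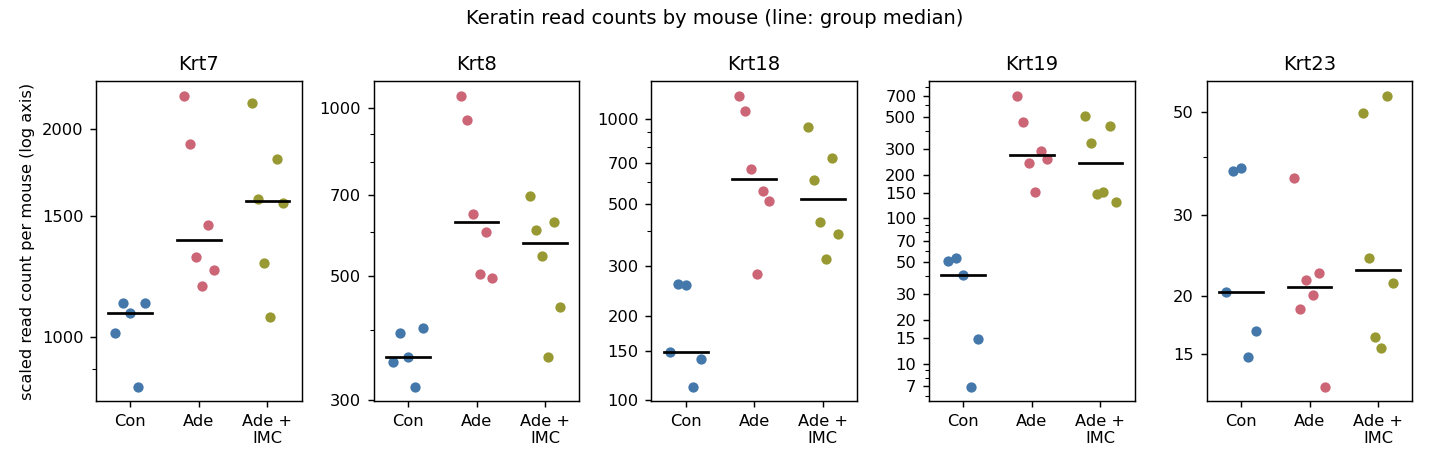
Scaled read count (log axis) of each keratin in 5 Con, 6 Ade and 6 Ade + IMC mice, where each point is a mouse and the line is the group median. The Ade points of Krt7, Krt8, Krt18 and Krt19 all lie above the Con points, those of Krt23 overlap them, and the Ade + IMC points overlap the Ade points in every panel.

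Addition of IMC to the adenine diet was not followed by a called change in any of the 5 keratins. limma on the deposited normalized counts set both adenine-fed groups against each other, and in it 0 of 14696 genes were called (0% of those tested) and 988 had an unadjusted p below 0.05. edgeR on the recovered reads also called 0 genes, and DESeq2 called 37.

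In Ade + IMC mice the scaled counts of Krt7 were 1070 (lowest), 1574 (median) and 2183 (highest), and those of Krt8 were 358, 574 and 697. Krt18 had 317, 520 and 943. Each of these ranges overlapped that of the Ade group, and for Krt7 and Krt8 1 of the 6 mice, number 311, also fell within the Con range. Krt19 stood at 130, 241 and 507 and Krt23 at 15.5, 22.8 and 54.2.

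The limma log2 fold change of Ade + IMC over Ade was 0.03 for Krt7, with a 95% interval of -0.38 to 0.43. For Krt8 it was -0.35 (-0.80 to 0.10), the nearest of the 5 to a difference. The intervals were wider for Krt18, at -1.01 to 0.47 around -0.27, and for Krt19, at -1.22 to 0.54 around -0.34. Krt23 was at 0.33 (-0.39 to 1.05). The limma adjusted p ranged from 0.769 for Krt8 to 0.984 for Krt7, and a fall of Krt18 or Krt19 by 2-fold, the log2 value of -1, lies at or within these intervals.

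Two-sided exact permutation of the 12 mice, over 924 splits with a smallest possible p of 0.00216, gave p = 0.18 for Krt8 and 0.885 for Krt7. Krt18 (p = 0.502), Krt19 (p = 0.487) and Krt23 (p = 0.37) lay between them in the same exact test. With splits kept inside mice of one first digit (180 splits) the exact p was 0.0833 for Krt8 and 0.267 or more for the other members. Krt8 was lower in Ade + IMC than in Ade mice within all 3 digits, by 0.64, 0.54 and 0.01 on the log2 scale, and with the digit as a block in limma its interval was -0.67 to -0.04. That fit gave an unadjusted p of 0.0304 and an adjusted p of 0.302, so Krt8 was not called there either, while 0.905% of all genes were.

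Against Con mice, the Ade + IMC group showed the same 4 keratins called higher by limma, and this comparison shares its Con mice with the one above. Krt19 was 9.01-fold higher (95% interval 4.14 to 19.6, adjusted p = 0.000176), and Krt18 was 3.05-fold higher (1.99 to 4.69, adjusted p = 0.000346). Krt7 was 1.49-fold higher (1.19 to 1.88, limma adjusted p = 0.00591) and Krt8 1.46-fold (1.17 to 1.83, limma adjusted p = 0.0069). Krt23 was not called, at 1.13-fold (0.647 to 1.96). In this comparison 31.3% of the 14545 genes were called higher. All 6 Ade + IMC mice lay above every Con mouse for Krt18 and Krt19, a separation seen in 19.1% of genes, against 5 of 6 mice for Krt7 and Krt8 and 2 of 6 for Krt23.

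**Figure D2:**
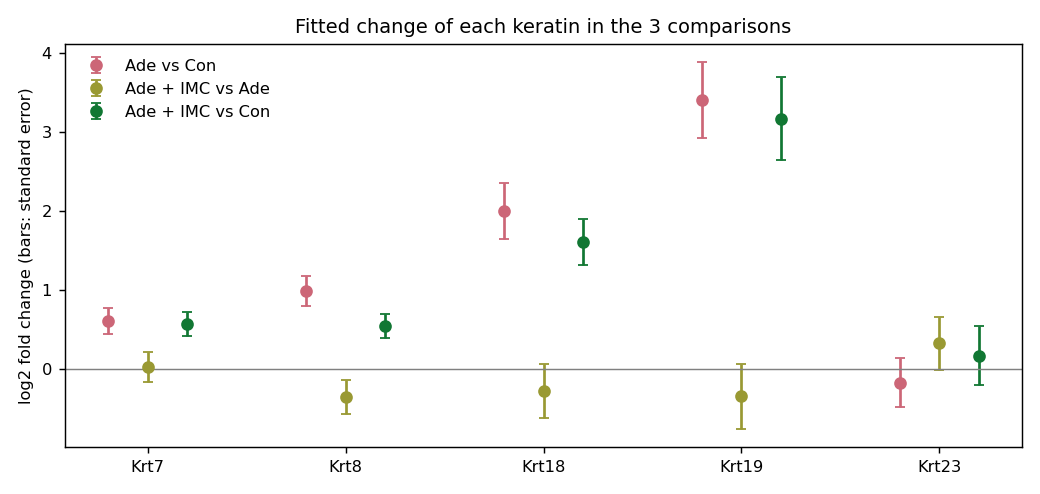
Fitted log2 fold change of each keratin in the 3 comparisons, by edgeR for Ade vs Con and by limma for both others, with bars of 1 standard error. Ade vs Con values run from -0.17 for Krt23 to 3.41 for Krt19, and the Ade + IMC vs Ade values lie between -0.35 and 0.33.

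The members did not move in proportion. Since filaments need both types of chain, the reads of Krt18 were set against those of its partner Krt8 within each mouse. Krt19 and Krt23 were also set against Krt18 (all type I) and Krt7 against Krt8 (both type II), which are not partner chains. Ratios are per kilobase of the longest coding transcript, with 1 added to each count. Adenine feeding raised the ratio of Krt18 to Krt8 1.98-fold and that of Krt19 to Krt18 3.09-fold, and it lowered the ratios of Krt7 to Krt8 and of Krt23 to Krt18.

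The ratio of Krt18 to its partner Krt8 was 0.58, 0.896, 0.982, 0.482 and 0.478 in Con mice 201, 202, 301, 302 and 403. In Ade mice it was 0.763 at the lowest, 1.41 at the median and 1.57 at the highest. Mouse 407 alone among the Ade group fell within the Con range. The log2 change was 0.98, with a two-sided exact permutation p of 0.00866 over 462 splits, which is also its value adjusted over the 4 ratios tested.

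The ratio of Krt19 to Krt18 was 0.315, 0.192, 0.148, 0.064 and 0.102 in the same Con mice, and 0.328 (lowest), 0.467 (median) and 0.527 (highest) in Ade mice. The groups did not overlap, and the exact permutation p of 0.00216 (adjusted 0.00577) was the smallest that 462 splits can give. The ratio of Krt23 to Krt18 was between 0.116 and 0.138 in Con mice. It rested there on 15 to 37 Krt23 reads in each mouse, so nothing is read from its narrow range. In Ade mice it was 0.0168 to 0.0686, a log2 change of -2.04 (exact permutation p = 0.00433, adjusted 0.00577).

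The ratio of both type II keratins, Krt7 to Krt8, was 1.38, 1.35, 1.45, 1.28 and 1.33 in Con mice. It was 0.953 at the lowest, 1.07 at the median and 1.20 at the highest in Ade mice, below every Con mouse. In Ade + IMC mice the lowest was 1.13, the median 1.40 and the highest 1.70, so 5 of the 6 were above every Ade mouse. Ade vs Con gave a log2 change of -0.35 (exact permutation p = 0.00433, adjusted 0.00577) and Ade + IMC vs Ade one of 0.38 (exact permutation p = 0.00649, adjusted 0.026 over the 4 ratios). Within the first digit the change with IMC was 0.42 (exact permutation p = 0.00556, the smallest that 180 splits can give). It was the only one of the 4 ratios past the threshold of these exact tests, an adjusted p below 0.05, between Ade + IMC and Ade, and with 1 mouse left out at a time it stayed between 0.32 and 0.44, but the adjusted p rose to 0.0519, just above that threshold, for 7 of the 12 mice.

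The other 3 ratios in Ade + IMC and Ade mice gave exact permutation p of 0.723 (Krt18 to Krt8), 0.716 (Krt19 to Krt18) and 0.0844 (Krt23 to Krt18, log2 change 0.60). Krt23 to Krt18 in Ade + IMC mice, at 0.037 to 0.0696, stayed below every Con mouse. Within the first digit the exact p for Krt23 to Krt18 was 0.0389, and without Ade mouse 407, whose ratio of 0.0686 was the highest of its group, the change was 0.83 with an adjusted p of 0.026.

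**Figure D3:**
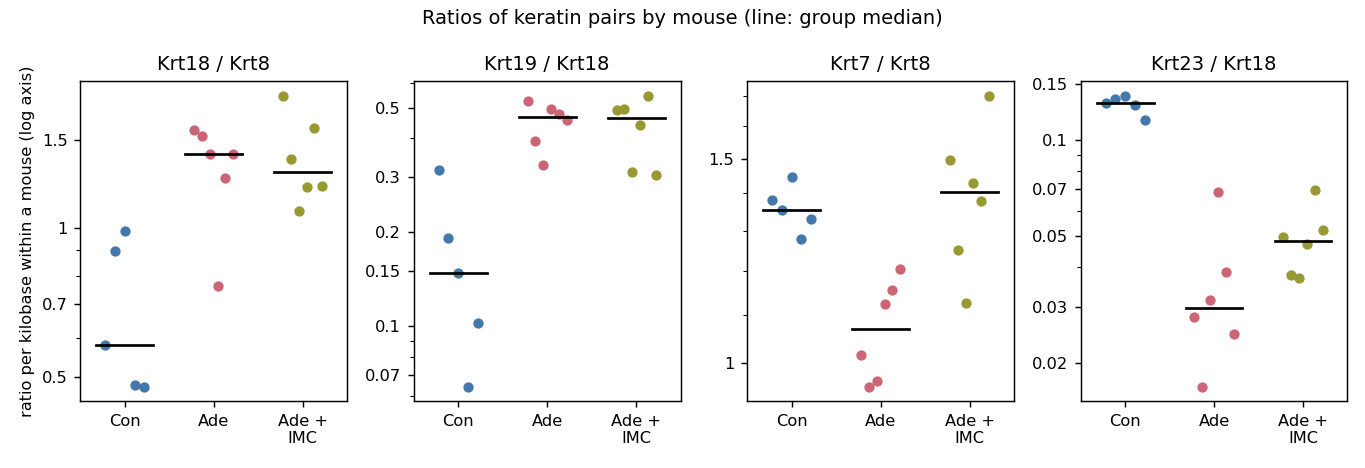
Ratio of reads per kilobase of 4 keratin pairs within each mouse (log axes), with each point a mouse and the line the group median. The Ade points lie mostly above the Con points for Krt18 to Krt8 and Krt19 to Krt18 and below them for Krt7 to Krt8 and Krt23 to Krt18, and for Krt7 to Krt8 the Ade + IMC median of 1.40 is above the Ade median of 1.07.

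Per kilobase, the type I members took a larger share of the summed keratin level in adenine-fed mice. Krt18, Krt19 and Krt23 together made up 19.7% to 33.9% of the 5 in Con mice (median 25.9%), 35.8% to 54.8% in Ade mice (median 48.9%) and 37.8% to 53.2% in Ade + IMC mice (median 45.3%). Krt19 alone went from a median of 3.83% in Con to 14.7% in Ade, and Krt23 from 2.27% to 1.02%. These shares depend on the length taken for Krt7, whose longest coding transcript has 4094 bases and whose exons together cover 7049. They, the order given below and the level of the ratios to Krt8 also depend on how Krt8 reads were counted. Of its windows, 29.7% occur in another gene, and such reads can be split or dropped. Over all exons the type I share was 24.2% to 40.1% in Con and 40.6% to 59.3% in Ade mice. In Con mice the order of median level per kilobase was Krt7 (31.2 CPM), Krt8 (21.9), Krt18 (11.7), Krt19 (3.11) and Krt23 (1.48), where CPM is the count scaled to a common library total. The ranges of Krt7 (22.6 to 32.4) and Krt8 (17.7 to 23.9) overlapped, and over all its exons Krt7 (median 18.1 CPM per kilobase) came below Krt8. Ade medians were 61.2 for Krt18, 48.5 for Krt7, 45.8 for Krt8, 24.7 for Krt19 and 1.91 for Krt23, with overlapping ranges for the first 3 genes.

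**Figure D4:**
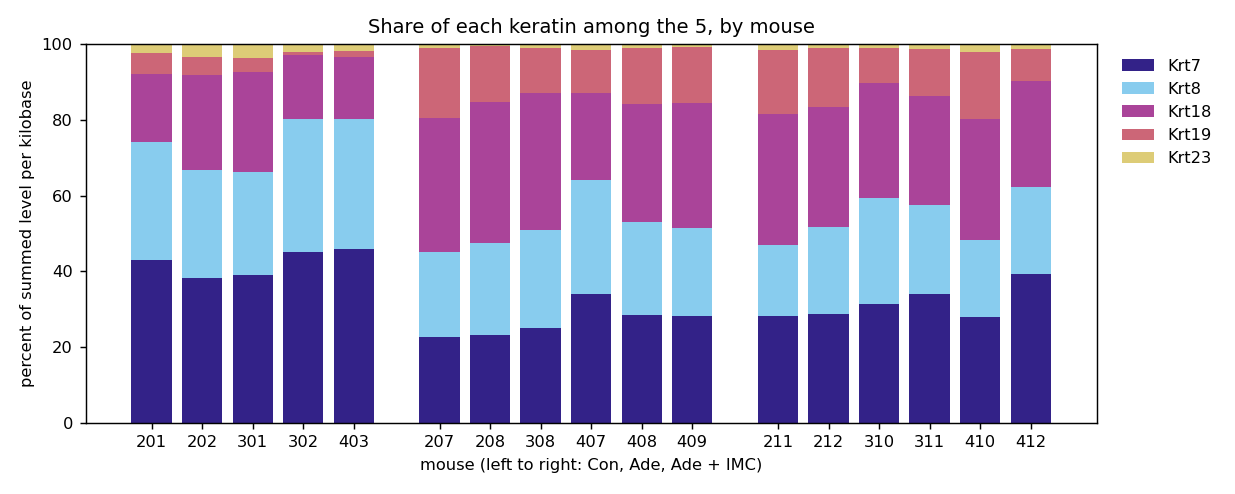
Share of each keratin in the summed level per kilobase of the 5, for each mouse, in percent. The upper segments (Krt18, Krt19, Krt23) make up 19.7% to 33.9% in the 5 Con mice at the left and 35.8% to 54.8% in the 6 Ade mice in the middle.

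Urothelial genes varied between mice in the same direction as several of the keratins. The 6 markers (Upk1a, Upk1b, Upk2, Upk3a, Psca, Foxa1) had summed scaled counts of 186, 437, 368, 17.8 and 26.7 in Con mice 201, 202, 301, 302 and 403. They ranged from 121 to 818 in Ade mice (median 204) and from 74.7 to 939 in Ade + IMC mice (median 365). In mouse 302 2 of the 6 markers, Upk2 and Upk3a, were at 0 counts, and in mouse 403 Foxa1 was at 0. Of the 6, 3 were called higher in Ade than in Con mice and none lower, where 35.1% of all genes were called higher, led by the uroplakin gene Upk1b at a log2 fold change of 1.85 ± 0.73 (SE, edgeR adjusted p = 0.0405). All 6 were tested, but the 3 called (Upk1b, Upk3a and Foxa1) passed the filter on low counts only through the Ade mice.

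Con mice 302 and 403, lowest for these markers, were also lowest for Krt19 and Krt18, and Ade mice 207 and 208, highest for the markers (818 and 607), were highest for Krt7, Krt8, Krt18 and Krt19. Among Ade + IMC mice, 211 and 410 were highest for the markers (939 and 924) and for all 5 keratins. Ade mice 207 and 208 were also highest of their group for the 7 injured tubule markers, at 153900.4 and 152887 summed scaled counts against 50695 to 119357 in the rest, and lowest for the 7 proximal tubule markers, at 11154 and 11851 against 20683 to 47769. Ade mouse 407, lowest of the group for Krt7, Krt18 and Krt19, was lowest for the injury markers too, whereas mouse 310, highest for them among Ade + IMC mice (102556), was not among the highest 3 for any of the 5 keratins. Con mouse 403, low for the urothelial markers, had the highest Krt7 (1122) and Krt8 (403) of its group. Without Con mice 302 and 403 and Ade mice 207 and 208, a set chosen after seeing these markers, Krt19 was 4.89-fold, Krt18 2.31-fold, Krt8 1.55-fold and Krt7 1.23-fold higher in Ade than in Con mice. All 4 were still called (edgeR adjusted p of 0.0423 or less) where 29.8% of genes were called higher, with the fold of Krt18 and Krt19 over 1.5 times smaller. The mice left out include both Con mice lowest for Krt18 and Krt19 and both Ade mice highest for Krt7, Krt8, Krt18 and Krt19, so smaller folds of Krt18 and Krt19 follow from the choice of mice. The same holds for Krt23, whose lowest 2 Con values (mice 302 and 403) and highest Ade value (mouse 207) were among those left out. Its log2 fold change in the 7 remaining mice was -0.69 ± 0.31 (SE, edgeR adjusted p = 0.0908, where 26.6% of genes were called lower), it passed the threshold under none of the other alternatives run, and no direction is read from it. The marker sums in these 7 mice were 186 to 437 in the 3 Con mice and 121 to 216 in the 4 Ade mice. Psca alone gave 243 and 248 scaled counts in Con mice 202 and 301. It gave 56.1 in Con mouse 201 and 48.2 to 98.1 in these Ade mice. Krt5 and Krt20, which are not in the sum, stood at 18.4 to 34.0 and 0 to 2.19 in these Con mice. In these Ade mice they stood at 26.1 to 105 and 23.1 to 152. The marker Upk1a went the other way, at 35.8 to 63.5 in Con and 14.7 to 42.2 in Ade. Whether these mice held equal amounts of urothelium was not tested.

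**Figure D5:**
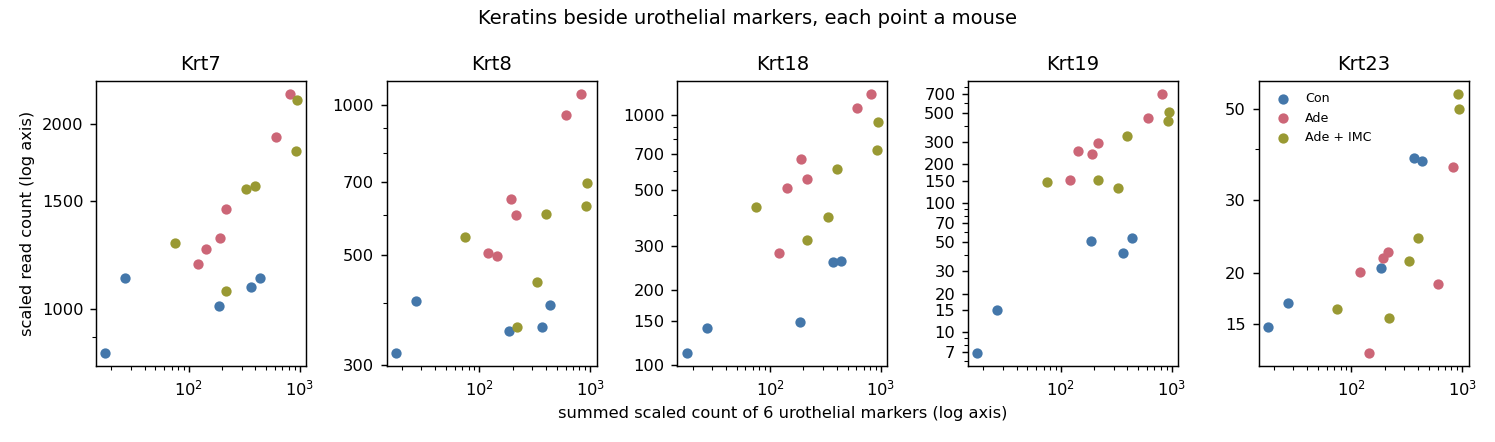
Scaled count of each keratin against the summed scaled count of 6 urothelial markers (both log axes), each point a mouse. At marker sums between 121 and 437, Krt19 stood at 40.9 to 53.7 in 3 Con mice and at 152 to 291 in 4 Ade mice. Whether these mice held equal amounts of urothelium was not tested.

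Within groups, the genes most like each keratin were ranked by Pearson r of log2 CPM over 17 mice after subtraction of group means, among 12369 genes with a mean of at least 5 CPM that were tested in Ade vs Con. These are the highest of many values and are given as a description. For Krt7 they included Krt8 (r = 0.903) and Hoxb9 (0.89). For Krt8 they were the epithelial transcription factor Elf3 (0.945), the tight junction gene Cldn4 (0.933) and Cd151 (0.929), a tetraspanin. For Krt18 they included Cldn4 (0.963) and Vat1 (0.943).

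Krt19 had Oit1 (0.956), the cornified envelope gene Sprr1a (0.944) and the uroplakin gene Upk3a (0.929) as its nearest genes, which differ from those of Krt7, Krt8 and Krt18. Krt23 had Aldh1a3 (0.916), a retinaldehyde dehydrogenase, Mprip (0.898) and Gm2830 (0.856). Among the members, Krt8 was the gene nearest to Krt7, at place 1 of 12370. Krt18 stood at place 30 for its partner Krt8 (r = 0.853) and Krt8 at place 40 for Krt18. Krt8 and Krt23 were the least alike pair (r = 0.607). All of these values share the library of each mouse and its depth.

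The other keratins of the tables, 20 genes, were mostly near 0, and 7 passed the filter on low counts. The filter keeps a gene that reaches 10 counts, scaled to the median library, in at least 5 mice. Of those 7, 4 were called higher (Krt5, Krt14, Krt15 and Krt20) and 1 lower (Krt222) in Ade than in Con mice, where 35.1% and 32.2% of all genes were. The 4 would not have passed on the Con mice alone, nor Krt222 on the Ade mice alone, so the filter favours such genes and nothing is read from this count. Krt20, a keratin of the surface cells of urothelium and of gut epithelium, had 0 to 2 counts in Con mice and 23 to 466 in Ade mice (log2 fold change 7.25 ± 0.97 SE, edgeR adjusted p = 2.8e-05). Krt5 and Krt14, the pair of basal layers, were 7.65-fold and 7.01-fold higher (edgeR adjusted p = 0.00223 and 0.00138), from 1 to 31 and 0 to 12 counts in Con mice. Krt5 and Krt14 were at 1 and 0 counts in both Con mice 302 and 403. Krt17 was at 0 in all 5 Con mice and had 72 counts over the 6 Ade mice, at least 25.9-fold higher against a floor of 3 counts over the Con group. Mouse 207 gave 35 of the 72 counts, and without it the other 5 Ade mice, with 37 counts, were at least 16.02-fold higher. None of the 7 was called between Ade + IMC and Ade, in a fit that called 0 of 14696 genes. Krt20 was nearest to a call there, at a log2 fold change of -1.40 ± 0.69 (SE, limma adjusted p = 0.745).

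Genes that work with keratin filaments were called about as often as genes at large. Of 15 tested plakins, plakophilins and other desmosomal or filament-binding genes, 5 were called higher and 4 lower in Ade than in Con mice (35.1% and 32.2% of all genes), with a median log2 fold change of 0.02, the same as over all genes. Plec, which links filaments to hemidesmosomes, rose by a log2 value of 1.21 ± 0.14 (SE, edgeR adjusted p = 7.9e-06), and Ppl, another plakin, by 0.86 ± 0.34 (edgeR adjusted p = 0.0386). The desmosomal gene Pkp4 had a log2 fold change of -0.73 ± 0.10 (SE, edgeR adjusted p = 4.4e-05).

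Of the 14 other intermediate filament genes 9 passed the filter, and these were called higher in Ade than in Con mice, where 35.1% of all genes were. Sync and Nefl passed only through the Ade mice, with 0 Con mice at the minimum, so their place among the 9 depended on their higher Ade counts. Vim, the filament of mesenchymal cells that injured tubule cells also make, was 5.29-fold higher, with 447 to 605 scaled counts in Con and 2224 to 3341 in Ade mice. Sync, a filament protein of muscle, was 5.51-fold higher from 2 to 5 counts in Con mice. Lmnb1, a nuclear lamin, was 2.76-fold higher. The edgeR adjusted p of the 3 genes was 7.3e-05 or less.

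Of 24 transcription factors of epithelial identity and of the AP-1 and ETS families, 13 were called higher and 4 lower, with a median log2 fold change of 0.42. All 24 were tested, and 4 of the 13 (Klf5, Trp63, Fos and Fosl1) passed the filter only through the Ade mice. In this and the following lists the shares over all genes were 35.1% higher and 32.2% lower. Runx1, a factor induced in injured tubules, was 13.7-fold, Sox9, a factor of tubule repair, 7.61-fold and the AP-1 gene Fos 4.99-fold higher (edgeR adjusted p of 2.9e-06 or less). The 11 epithelial junction and adhesion genes had 5 higher and 2 lower, with a median of 0.10, against 0.02 over all genes. Among them were Muc1 (3.61-fold) and Cldn4 (3.36-fold), and Cldn4 is also among the genes most like Krt18. Of 12 genes of keratin turnover and cell death, 5 were higher and 2 lower, led by the small heat shock gene Hspb1 (3.64-fold), with Tradd (1.59-fold), whose product binds Krt18, also higher. None of the genes in these 5 lists was called between Ade + IMC and Ade by limma without a block, a fit that called 0 of 14696 genes. With the first digit as a block, 2 of the 24 transcription factors were called lower and no gene of the other lists was called. In that fit 0.905% of all genes were called.

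The labelled tissue was checked against markers of kidney cells, in a comparison that called 35.1% of all genes higher and 32.2% lower. All 7 proximal tubule markers and all 7 tested principal cell markers were called lower in Ade than in Con mice, with median log2 fold changes of -2.07 and -1.26. The counts lower were 4 of 5 for the loop and distal tubule and 4 of 5 for intercalated cells. Podocyte markers had 1 of 4 higher, mesothelial markers 1 higher and 1 lower of 3 tested, leukocyte markers 4 of 4 higher and injured tubule markers 6 of 7 higher. Every listed leukocyte and injured tubule marker was tested, but Cd79a and Cd3e of the first and Havcr1 and Lcn2 of the second passed the filter only through the Ade mice, as did the mesothelial marker called higher, Msln. Summed scaled counts of the principal cell markers, whose cells carry Krt7 and Krt19 in normal kidney, fell outside the Con range, at 2507 to 3853 in Ade against 6205 to 8493 in Con mice, while Krt7 and Krt19 counts were higher. The part of these shifts, and of the urothelial markers, in the keratin values was not tested.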

How the data were processed

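Kidney RNA of each mouse was sequenced by the authors as single-end reads of 50 bases on TruSeq libraries. The paper names STAR and mm10, whereas the submitters' processing notes list Trimmomatic 0.39, Bowtie2 2.2.5, HTSeq 0.9.1 and DESeq2. The authors deposited raw counts per gene for Con and Ade mice. For both adenine-fed groups the deposited values are a signal, each count divided by a DESeq2 size factor. Columns of the authors' own comparison (fold changes and p-values) were not used. All normalized values were whole multiples of 1 read within 0.001, and the recovered reads equalled the raw counts in the Ade mice. A chi-square test over genes separated all 40 pairs of mice of one group, at 4.21 or more per degree of freedom.

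Ade and Con mice were compared with edgeR 4.0.16 (quasi-likelihood, TMM, filterByExpr, 14612 genes), with standard errors derived from the F statistic. The other comparisons used limma 3.58.1 (trend) on the log2 of normalized count + 1, for genes with a mean of at least 10, in R 4.3.3. DESeq2 1.42.0 was an alternative. The threshold of these fits was a Benjamini-Hochberg adjusted p below 0.1, and that of the exact tests 0.05. Python 3.11.15 ran two-sided exact permutation tests on single values. Scripts were tested on simulated data. The members and gene lists were chosen with earlier results of these data known. Besides the 5 keratins, at most 3 genes of each list were named, those with the largest called change in Ade vs Con, and those nearest to each keratin. The 6 urothelial markers were named in full. Some genes that this rule names are not reported here. Krt17, the mice left out for their urothelial markers and the motifs were chosen after values were seen. GRCm38 coordinates and lengths came from GENCODE M21, which may differ from the authors' annotation.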

Additional observations from a re-analysis of the deposited data

How the results depend on the processing

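The calls of Krt7, Krt8, Krt18 and Krt19 in Ade vs Con held in all 16 alternatives set at the outset and, added after seeing the data, without 4 mice that stood apart in urothelial markers. In Ade + IMC vs Con they held in all 16. Between Ade + IMC and Ade no member was called in 19 alternatives, while the count of called genes moved from 0 to 37 with DESeq2, to 133 with a block on the mouse number's first digit and to 104 with edgeR and that block (added later). It was 0 each time 1 mouse was left out.

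With 1 mouse left out, the log2 change from Ade to Ade + IMC ranged from -0.072 to 0.14 for Krt7 in limma and in the mean level, reversed without Ade replicate 3, 4 or 6 (-0.016, -0.039 and -0.029) or Ade + IMC replicate 1 or 5 (-0.072 and -0.015). Krt18 ranged from -0.51 (without mouse 407) to -0.085 (without 207), Krt19 from -0.55 (without 211) to -0.10 (without 207), Krt8 from -0.44 to -0.22 and Krt23 from 0.14 (without 410) to 0.49. The Krt18 to Krt8 ratio ranged from -0.072 to 0.15 (reversed at -0.072 and -0.0082) and Krt19 to Krt18 from -0.15 to 0.026 (reversed at 0.020 and 0.026). The Krt7 to Krt8 ratio ranged from 0.32 to 0.44 and Krt23 to Krt18 from 0.42 to 0.83. Krt23 ranged from -0.36 to 0.018 in Ade vs Con, reversed without Con replicate 2 (0.00039) or 3 (0.018), and from -0.027 to 0.34 in Ade + IMC vs Con, reversed without Ade + IMC replicate 1 (-0.0027) or 5 (-0.027). Without the 4 mice Krt23 was at -0.69 in Ade vs Con and past the threshold, but those mice held its 2 lowest Con values and its highest Ade value, so that value follows from their choice. For the reversals the cause was not tested. Krt23 rested on 13 to 51 reads in a mouse and Krt19 in Con mice on 7 to 67, and the part of depth in their spread was not tested.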
